A study of Mus musculus with 2 samples.

Results

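The chemokines, their receptors and the genes named for the tumour necrosis factor (TNF) system were examined in sorted tuft cells of the mouse small intestine with and without the transcription factor gene Spib. Members were genes whose symbol begins with Ccl, Cxcl, Ccr, Cxcr or Traf followed by a digit, or with Tnfsf, Tnfrsf or Tnfaip, together with Cx3cl1 and Tnf, and Ccl6 was left out. The rule used names and no measured value. It took 86 of the 17134 genes in the table, which were 16 CC chemokines, 11 CXC and CX3C chemokines, 12 chemokine receptors, 9 TNF superfamily ligands, 20 TNF superfamily receptors, 8 TNF-induced proteins, and 10 TRAF adaptors and their interactors.

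Tuft cells were sorted by EpCAM, an epithelial surface protein, and SiglecF, and their RNA was amplified as cDNA (SMART-Seq2) and sequenced. The study holds 1 library from Spib+Villin-cre mice, called WT here, and 1 library from Spibfl/flVillin-cre mice, called Spib_KO. Both groups carry Villin-cre, in which the Villin promoter drives Cre recombinase across the intestinal epithelium and not in tuft cells alone, so the floxed gene is lost from the other epithelial cells as well. The series title calls the control mice naïve, and the number, age and sex of the mice behind each library were not given in the sources used here.

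Chemokines are small secreted proteins that draw leukocytes along gradients through G protein-coupled receptors, and Ccl25 is the textbook example in the small intestine, where the epithelium makes it and lymphocytes carry its receptor Ccr9. TNF superfamily ligands bind cell-surface receptors that recruit TRAF adaptor proteins or death-domain proteins, and much of their signal passes to NF-kB, which in turn raises feedback genes such as Tnfaip3. Tuft cells are chemosensory epithelial cells known for starting type 2 immune responses to helminths and protists. Spib encodes an ETS family transcription factor best known from B cells, plasmacytoid dendritic cells and the antigen-sampling M cells of the gut.

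The libraries held 17925421 assigned reads in WT and 17228665 in Spib_KO, and 16085 and 15437 genes had at least 1 read. Spib itself (chromosome 7, 44525995 to 44532087) had 6266 reads in WT against 48 in Spib_KO, or 348 and 2.80 CPM (counts scaled to library size), which matches the genotype labels. All 19 of a list of tuft cell markers were measured and none was called in either direction, with summed levels of 22962 CPM in WT and 22350 CPM in Spib_KO. Lists for other epithelial cells summed to 2241 and 898 CPM for Paneth cells, 2211 and 1378 CPM for goblet cells, 136 and 41.6 CPM for enteroendocrine cells, 14111 and 16121 CPM for enterocytes, 1142 and 895 CPM for stem cells, and 188 and 208 CPM for M cells, in WT and Spib_KO respectively. Within the enterocyte list, Fabp1 went from 6968 CPM in WT to 10611 CPM in Spib_KO, and 6 of the 9 markers were lower. Corrected for gene length (TPM), the enterocyte list summed to 39095 in WT and 49358 in Spib_KO. On that scale the tuft list summed to 17048 and 16960, and Fabp1 alone was at 30129 and 42931. In the M cell list, Marcksl1, Pglyrp1 and Ctsh held most of the sum, and 6 of the 11 genes were lower in Spib_KO. Its marker Sox8 had 118 reads in WT against 4 in Spib_KO, and its genes Ccl9, Ccl20, Tnfaip2 and Tnfrsf11b are also members. With 1 library in each group there is no replicate check, no test between genotypes was possible, and every interval below is a 95% counting interval that covers sampling of reads only. The reads carry no molecular identifiers, so copies made by amplification widen the true error by an unknown amount.

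Of the 86 members, 29 were measured, meaning at least 5 CPM and at least 30 reads in 1 library or both. A further 14 had at least 30 reads but stayed under 5 CPM, and 43 had fewer than 30 reads in each library. A gene was called when the whole interval of its ratio, Spib_KO over WT, lay beyond a 2-fold difference. By that rule 1 measured member was called lower in Spib_KO, Ccl5, which is 3.45% of the 29, against 2.18% of the 10707 measured genes. No measured member was called higher, against 2.33% of all measured genes. The median log2 ratio of the measured members was -0.13, with 14 above 0 and 15 below it, against 0.01 for all measured genes. The middle of their range was wider, with quartiles at -0.59 and 0.34 against -0.26 and 0.28. The ratios of 15 of the 29 (51.7%) were within 1.5-fold, against 79.5% of all measured genes, although the members were less abundant, with a median of 18.4 CPM against 35.7 CPM, and so carried more counting error.

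**Figure D1:**
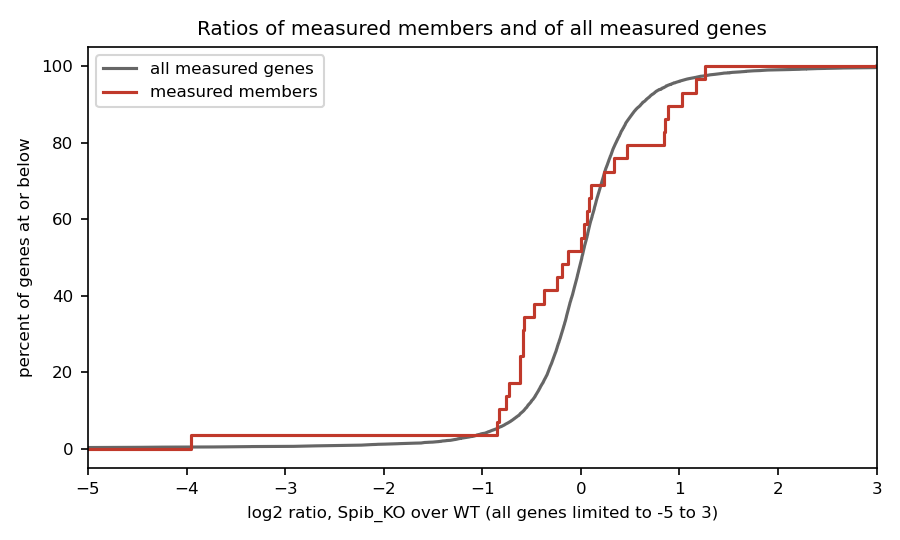
Cumulative percent of genes (vertical axis) against the log2 ratio of Spib_KO over WT (horizontal axis, shown from -5 to 3) for the 29 measured members and for all 10707 measured genes. The middle of the members' curve is less steep, with quartiles at -0.59 and 0.34 against -0.26 and 0.28, while the curve of all genes has the longer tails.

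Taking the point estimate alone, for genes with at least 30 reads, widened the view to 43 members. Of these, 5 (11.6%) had a log2 ratio of 1 or more, against 5.85% of 12154 such genes, and 4 (9.30%) had one of -1 or less, against 6.08%. Those on the high side in Spib_KO were Tnfrsf11a, Tnfrsf25, Tnfrsf8, Tnfrsf9 and Traf1, which are receptors and an adaptor. Those on the low side were Ccl5, Tnf, Tnfsf15 and Ccr7, which are secreted or membrane-bound ligands and a chemokine receptor. These groups hold few genes, the shares have no test, and only Ccl5 met the stricter rule.

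**Figure D2:**
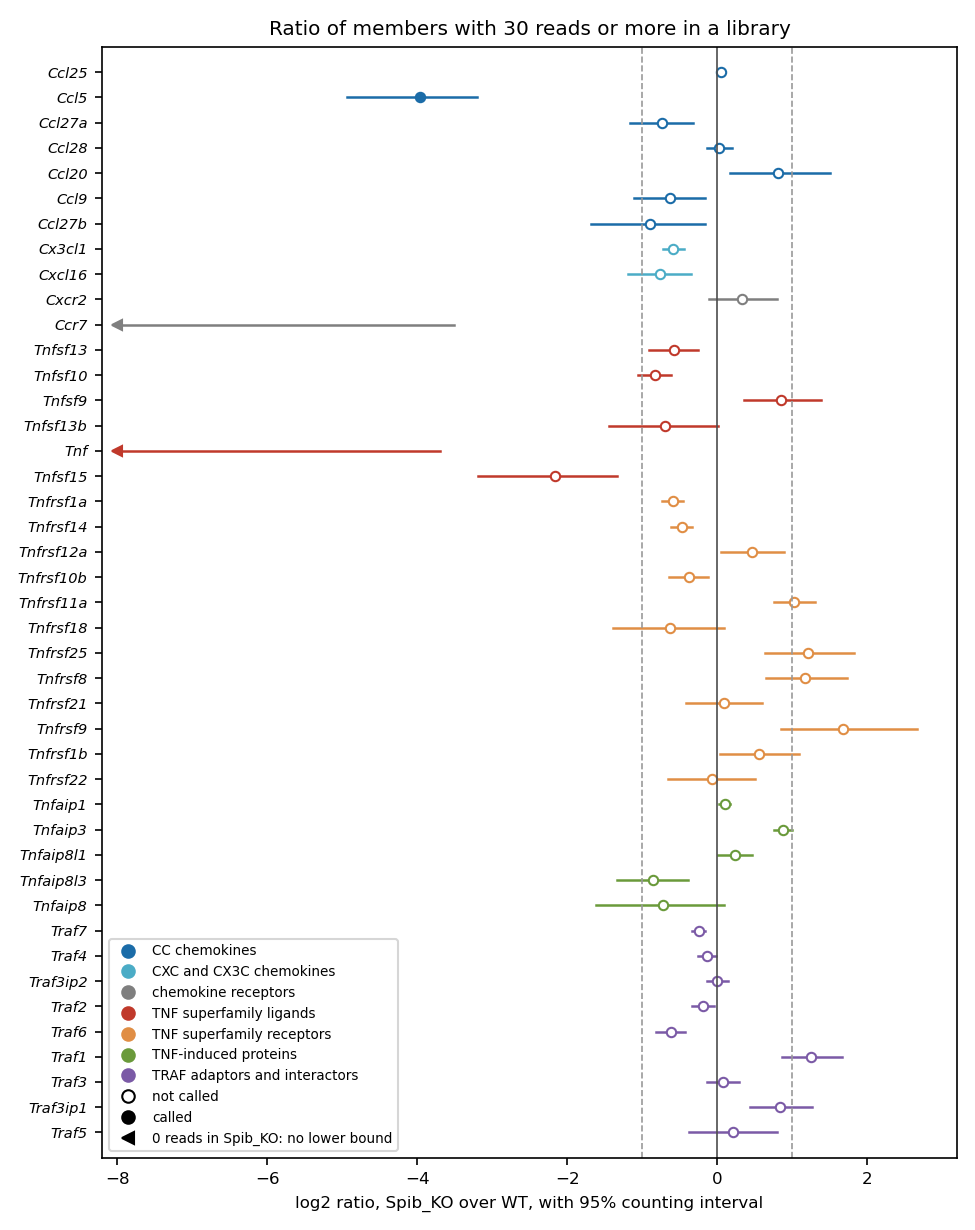
Log2 ratio of Spib_KO over WT (horizontal axis) with its 95% counting interval for each member with at least 30 reads, grouped by role. Dashed lines mark a 2-fold difference, filled points mark called genes (only Ccl5), and arrowheads mark Tnf and Ccr7, which had 0 reads in Spib_KO and whose ratio is bounded on the right only.

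Ccl25, the homing chemokine of the small intestine (chromosome 8, 4325205 to 4360020), was by far the most abundant member on the length-corrected TPM scale, where the values of a library share a fixed total. Its deposited level was 616 TPM in WT and 623 TPM in Spib_KO. In reads it had 7371 and 7312, a log2 ratio of 0.06 with an interval of 0.01 to 0.10, so a difference of 2-fold lay far outside its counting error. It made up 81.8% of the summed TPM of all 27 chemokines in WT and 90.3% in Spib_KO. The libraries also held markers of enterocytes and other epithelial cells, and which cells the Ccl25 reads came from was not tested. The other 26 chemokines together summed to 136.9 TPM in WT and 66.88 TPM in Spib_KO, and Ccl5 alone was 49.3 TPM of the first sum and 2.88 TPM of the second. Its receptor Ccr9, a lymphocyte gene in this tissue, had 24 reads in WT against 23 in Spib_KO. Exons of the opposite-strand gene AC165425.1, which has no counts here, cover 18.8% of the exonic bases of Ccr9.

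Ccl5 encodes RANTES, a chemokine made in quantity by memory T cells, natural killer cells and intraepithelial lymphocytes, which draws leukocytes. The gene (identifier 20304, chromosome 11, 83525778 to 83530518) had 219 reads in WT against 13 in Spib_KO. These were 12.2 CPM, with an interval of 10.6 to 13.9, and 0.758 CPM, with an interval of 0.403 to 1.30, and the intervals were far apart. The level of Ccl5 was 15.5-fold lower in Spib_KO, a log2 ratio of -3.96 with an interval of -4.94 to -3.20. In WT it was the second chemokine by TPM, at 49.3 TPM, and in Spib_KO it was at 2.88 TPM. Because the RNA came from bulk sorted cells, fewer cells of a type and less RNA per cell cannot be told apart. This holds for Ccl5 and for every other value given here.

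Most of the lymphocyte markers ran the same way as Ccl5. The 12 listed markers of T cells and intraepithelial lymphocytes summed to 48.6 CPM in WT and 14.5 CPM in Spib_KO, 9 of the 12 were lower in Spib_KO, and 3 of the 4 that were measured were called lower. Gzma, a granzyme of cytotoxic lymphocytes, had 317 reads in WT against 22 in Spib_KO. Cd7 had 119 and 16, and Itgae, the integrin that holds lymphocytes in the epithelium, had 117 and 16. Of the genes of the T cell receptor complex, Cd3e had 9 and 3 reads and Cd3d was at 0 in Spib_KO. The other 3 markers were higher in Spib_KO, with 80 and 135 reads for the kinase Lck, 3 and 15 for Cd8b1, and 2 and 11 for Cd2. The part of these cells in the Ccl5 result was not tested.

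The remaining CC chemokines with at least 30 reads included known epithelial products. Ccl28, a mucosal chemokine that attracts antibody-secreting cells, had 638 reads in WT against 622 in Spib_KO, or 12.7 and 12.9 TPM, with a log2 ratio of 0.03 and an interval of -0.13 to 0.19. Ccl27a, a relative of Ccl28 that shares the receptor Ccr10, had 131 and 75 reads, or 26.5 and 15.7 TPM, with a ratio of -0.73 and an interval of -1.17 to -0.32. The near-identical copy Ccl27b had 47 and 24 reads, and reads may be split between the copies, so their sum is the safer value. Summed, the pair had 178 reads in WT against 99 in Spib_KO, a log2 ratio of -0.77 with an interval of -1.15 to -0.42, which was lower but crossed the 2-fold line. Ccl9, which attracts myeloid cells and is made by the follicle epithelium, had 102 and 63 reads, a ratio of -0.62 with an interval of -1.10 to -0.16. Ccl20, the Ccr6 ligand of M cell-bearing epithelium, leaned the other way with 32 and 54 reads, a ratio of 0.81 with an interval of 0.17 to 1.5. None of these met the call rule, and the median ratio of the 5 measured CC chemokines was -0.62.

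Cx3cl1, or fractalkine, is a membrane-bound chemokine recognised by Cx3cr1 on intestinal macrophages. It had 1125 reads in WT against 716 in Spib_KO, or 62.5 CPM with an interval of 58.9 to 66.3 and 41.7 CPM with an interval of 38.7 to 44.9. The intervals did not overlap, and the log2 ratio of Cx3cl1 was -0.58, with an interval of -0.72 to -0.45, which is short of 2-fold. Cxcl16, the other transmembrane chemokine and the ligand of Cxcr6, had 135 and 76 reads, a ratio of -0.76 with an interval of -1.19 to -0.34. Exons of the opposite-strand gene Zmynd15 cover 18.3% of its exonic bases, but that gene had only 0 and 1 reads. Both of the measured CXC and CX3C chemokines were thus lower in Spib_KO without being called. The interferon-induced Cxcl10 had 12 reads in WT against 0 in Spib_KO, with an upper bound of -1.41 on its log2 ratio. The B cell chemoattractant Cxcl13 had 15 and 0 reads, with an upper bound of -1.77. The neutrophil chemoattractants Cxcl1 and Cxcl2 had at most 3 reads in either library.

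Chemokine receptors are mainly leukocyte genes, and only Cxcr2 among the 12 was measured. Cxcr2, a receptor for neutrophil-attracting CXC chemokines, had 77 reads in WT against 93 in Spib_KO, a log2 ratio of 0.34 with an interval of -0.11 to 0.80. Ccr7, which guides dendritic cells and naive T cells to lymph nodes (chromosome 11, 99144199 to 99155077), had 46 reads in WT against 0 in Spib_KO. This was 2.56 CPM in WT with an interval of 1.87 to 3.41, and the upper bound of its log2 ratio was -3.51. Cxcr6, the receptor for Cxcl16 on tissue-resident lymphocytes, had 19 and 0 reads, with an upper bound of -2.15. Ccr4 had 9 and 0 reads, with an upper bound of -0.91 that is under 2-fold, and Ccr2, Ccr6 and Cxcr5 had between 3 and 5 reads in WT against 0 in Spib_KO. In all, 7 of the 12 receptors had reads in WT alone, against 9.78% of the 17134 genes in the table. The receptors had few reads, with 10 of the 12 under 30 in both libraries. Of all genes under 30 reads in both libraries, 32.4% had reads in WT alone. Ccr1 and Ccr3 had 2 and 1 reads in Spib_KO and none in WT.

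Tnf encodes the founding cytokine of the family, made mostly by macrophages and lymphocytes. The gene (identifier 21926, chromosome 17, 35199367 to 35202007) had 52 reads in WT, or 2.89 CPM with an interval of 2.16 to 3.79, and 0 reads in Spib_KO. The ratio of Tnf has no lower bound, and the upper bound of its log2 interval was -3.70. Tnf stayed under 5 CPM and so was not among the measured genes, although it had the most WT reads of any member with 0 in Spib_KO. Its neighbour Ltb (35194507 to 35196305 on the same chromosome), which encodes lymphotoxin beta and falls outside the symbol rule, was called lower with 572 reads in WT against 113 in Spib_KO, a ratio of -2.27 with an interval of -2.58 to -1.98. Tnf and Ltb were thus both lower in the same library. Beside Tnf, Ltb and Ccr7, the 9 myeloid markers in the table summed to 33.0 CPM in WT and 22.3 CPM in Spib_KO, 8 of the 9 were lower, and C1qa, Csf1r and Tyrobp were at 0 in Spib_KO. The exception was the macrophage marker Adgre1, with 135 reads in WT against 230 in Spib_KO, or 7.50 and 13.4 CPM, which was most of the Spib_KO sum. The 5 B and plasma cell markers summed to 5.83 and 2.39 CPM, with Cd79a at 0 in Spib_KO. The part of myeloid, B and T cells in these values was not tested.

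The promoter of Tnf is shown because Spib belongs to the ETS family, whose members bind a GGAA core, and because Tnf had the most reads in WT of the members at 0 in Spib_KO. These are the 250 bases before its start in RefSeq (GRCm38.p6, chr17:35202008-35202257, minus strand, 5′ to 3′). Capitals mark the ETS-type letters AGGAAGT, at bases 84 to 78 before the start.
Tnf: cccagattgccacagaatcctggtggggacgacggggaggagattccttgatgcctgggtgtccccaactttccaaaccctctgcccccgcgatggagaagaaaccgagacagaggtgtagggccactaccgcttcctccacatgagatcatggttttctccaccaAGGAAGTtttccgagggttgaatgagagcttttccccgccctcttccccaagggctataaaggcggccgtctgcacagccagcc
The letters AGGAAGT were found on either strand in 7.69% of 32851 RefSeq promoter windows of this length and in 9 of the 82 windows of the members (11.0%). The genes with these letters had no common direction. Tnf was lower in Spib_KO, while Ccl20 and Tnfrsf13b had more reads there. Tnfaip1 had a log2 ratio of 0.10 and Traf7 one of -0.25. Ccr4, Ccr6, Tnfsf18 and Traf3ip3 had at most 9 reads. The longer PU box AGAGGAAGT, which contains them, was in 0.798% of all windows and in 2 of the members' windows (2.44%), those of Tnfsf18 and Traf3ip3. A match of letters is a description and not a measured binding site. The table of windows covers 70 of the 86 members.

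Among the other TNF superfamily ligands with at least 30 reads, Tnfsf15 had the lowest ratio. It encodes TL1A, the ligand of the receptor DR3 (Tnfrsf25), and lies on chromosome 4 from 63724600 to 63745059. It had 63 reads in WT against 13 in Spib_KO, or 3.50 and 0.758 CPM, and was 4.49-fold lower with a log2 ratio of -2.17 and an interval of -3.19 to -1.33. The interval lay beyond 2-fold, but the level was under 5 CPM in both libraries, so it was not counted as measured. Tnfsf10, or TRAIL, a ligand that can trigger cell death, had 512 and 274 reads, a ratio of -0.83 with an interval of -1.05 to -0.62 that straddled the 2-fold line. Tnfsf13, or APRIL, a plasma cell survival factor, had 200 and 128 reads, a ratio of -0.57 with an interval of -0.91 to -0.25. The read-through gene Tnfsfm13 covers 60.0% of the exonic bases of Tnfsf13, with 2 and 0 reads of its own assigned. Tnfsf13b, or BAFF, which sustains B cells, had 46 and 27 reads, a ratio of -0.69 with an interval of -1.44 to 0.02 that reached 0. Tnfsf9, the ligand of 4-1BB, was the exception on the high side, with 53 and 92 reads and a ratio of 0.86 with an interval of 0.36 to 1.38. The 9 ligands together summed to 26.75 TPM in WT and 18.58 TPM in Spib_KO.

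**Figure D3:**
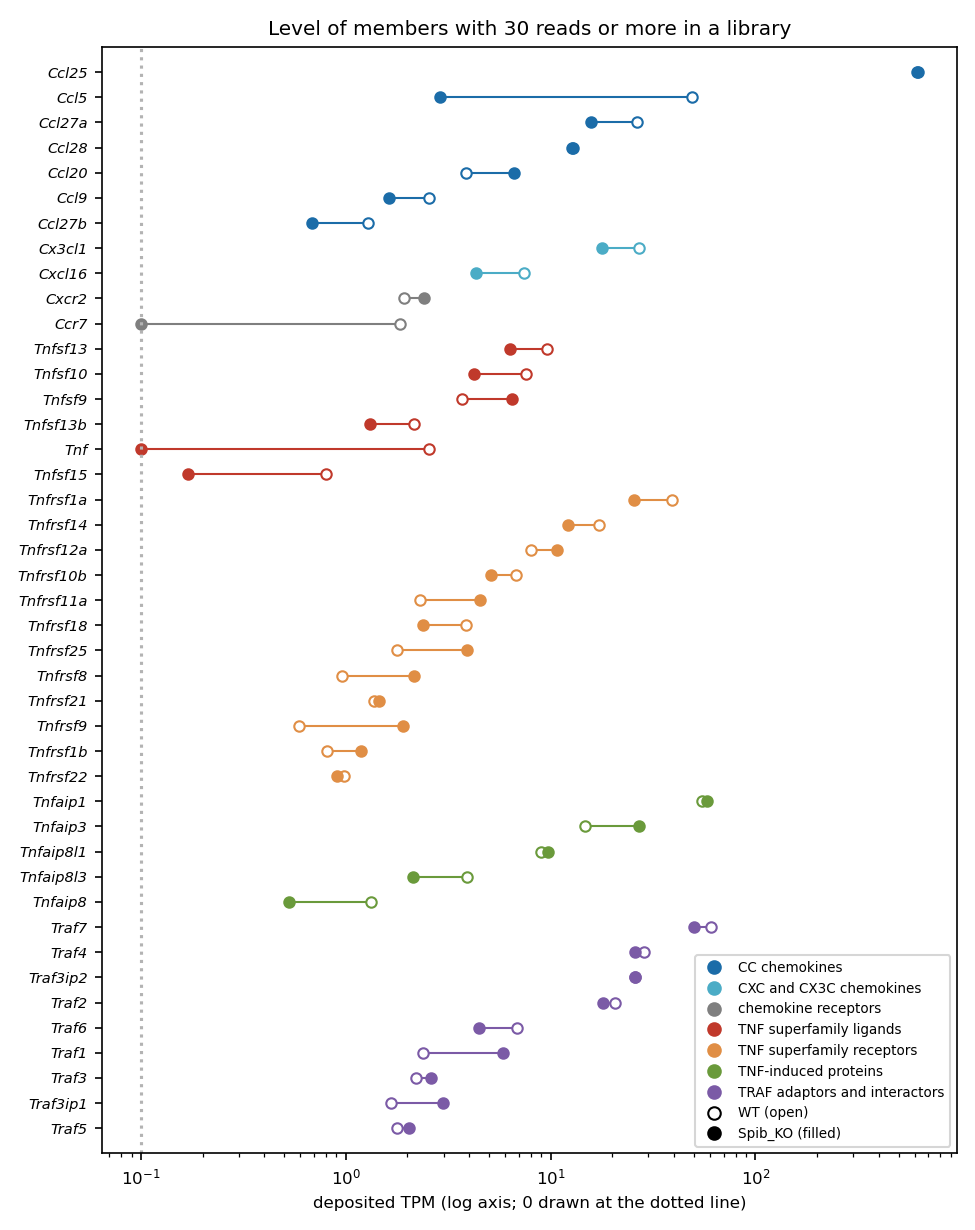
Deposited level in TPM (horizontal log axis) of each of the 43 members with at least 30 reads, grouped by role, with open points for WT and filled points for Spib_KO. Values of 0 are drawn at the dotted line at 0.1, and Ccl25 stands far to the right of every other member in both libraries.

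The 6 measured receptors of the family were evenly divided, with 3 ratios above 0 and 3 below. The most abundant by TPM was Tnfrsf1a, the main death-domain receptor for TNF, with 1081 reads in WT against 684 in Spib_KO. These were 60.1 CPM with an interval of 56.5 to 63.8 and 39.9 CPM with an interval of 36.9 to 43.0, which did not overlap. The log2 ratio of Tnfrsf1a was -0.59 with an interval of -0.73 to -0.45. Tnfrsf14, or HVEM, a receptor for LIGHT and BTLA, had 1091 and 749 reads, a ratio of -0.47 with an interval of -0.61 to -0.34. Tnfrsf10b, the mouse TRAIL receptor, had 285 and 209 reads, a ratio of -0.38 with an interval of -0.64 to -0.12. Tnfrsf12a, the TWEAK receptor, had 85 and 112 reads, a ratio of 0.46 with an interval of 0.05 to 0.89. All 4 of these receptors differed by less than 2-fold over their whole interval.

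The 4 receptors with a point log2 ratio of 1 or more were Tnfrsf11a, Tnfrsf8, Tnfrsf25 and Tnfrsf9. Tnfrsf11a encodes RANK, which epithelial cells need to become M cells, and lies on chromosome 1 from 105780673 to 105849444. It had 165 reads in WT against 321 in Spib_KO, or 9.17 CPM with an interval of 7.82 to 10.7 and 18.7 CPM with an interval of 16.7 to 20.9. That was 2.04-fold, a log2 ratio of 1.03 with an interval of 0.75 to 1.31. The decoy receptor of the same pathway, Tnfrsf11b, had 1 read in WT and 0 in Spib_KO. Tnfrsf8, or CD30, had 44 and 95 reads, a ratio of 1.17 with an interval of 0.65 to 1.73. Tnfrsf25, or DR3, had 36 and 80 reads, a ratio of 1.21 with an interval of 0.64 to 1.83. Tnfrsf9, or 4-1BB, had 15 and 47 reads, a 3.21-fold difference with a ratio of 1.68 and an interval of 0.85 to 2.66. Each of these 4 intervals lay above 0 and reached below 2-fold, so the receptors were not called. Tnfrsf13b, or TACI, a receptor of BAFF and APRIL, had 3 and 24 reads, a ratio of 2.87 with an interval of 1.35 to 5.44, but stayed under 30 reads. The death receptor relative Tnfrsf21 had 67 and 68 reads, and Tnfrsf22, a decoy receptor for TRAIL, had 55 and 50, so neither differed much.

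A group of the receptor genes lies on the distal part of chromosome 4, which was noticed after the values were seen. Tnfrsf8 (145267132 to 145315164) and Tnfrsf1b (145212368 to 145246870) are neighbours, and Tnfrsf1b, the second TNF receptor, had 54 reads in WT against 76 in Spib_KO, a ratio of 0.56 with an interval of 0.04 to 1.09. Tnfrsf9, Tnfrsf25, Tnfrsf14, Tnfrsf4 and Tnfrsf18 follow on the same chromosome. Tnfrsf4, or OX40, had 14 and 25 reads, a ratio of 0.88 whose interval of -0.09 to 1.96 included 0. Tnfrsf18, or GITR, had 44 and 27 reads, a ratio of -0.63 whose interval of -1.38 to 0.09 also included 0. Exons of the opposite-strand gene Gm16008, which has no counts here, cover 27.2% of the exonic bases of Tnfrsf18. The genes of this stretch therefore did not share a direction, with Tnfrsf14 and Tnfrsf18 lower in Spib_KO and the other 5 higher.

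Where a ligand and its receptor were both in the table, their values ran in different combinations. For DR3, the ligand Tnfsf15 was lower in Spib_KO and the receptor Tnfrsf25 higher, as the read counts above show. For 4-1BB, the ligand Tnfsf9 and the receptor Tnfrsf9 both had more reads in Spib_KO. TRAIL and its receptor both had fewer. For CD30, the receptor Tnfrsf8 had more reads in Spib_KO, while its ligand Tnfsf8 had only 5 and 2. For GITR, the ligand Tnfsf18 had 5 reads in WT against 0 in Spib_KO. Among chemokines, Cxcl16 and Cxcr6 both had fewer reads in Spib_KO. For Ccl20, the ligand had more reads in Spib_KO and its receptor Ccr6 had 5 in WT and 0 in Spib_KO.

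The most abundant TNF-induced proteins by TPM were Tnfaip1 and Tnfaip3. Tnfaip1, an adaptor of a ubiquitin ligase, had 2714 reads in WT against 2776 in Spib_KO, or 54.7 and 58.0 TPM, with a log2 ratio of 0.10 and an interval of 0.02 to 0.18. Tnfaip3, which encodes the ubiquitin-editing enzyme A20 that shuts off NF-kB, had 884 and 1557 reads, or 49.1 CPM with an interval of 45.9 to 52.5 and 90.7 CPM with an interval of 86.3 to 95.3. The intervals were well apart, and the level of Tnfaip3 was 1.85-fold higher, a ratio of 0.88 with an interval of 0.77 to 1.01 that ended at the 2-fold line. Tnfaip8l1, of the TIPE family of lipid-transfer proteins, had 304 and 341 reads and a ratio of 0.23, while its relative Tnfaip8l3 had 112 and 59 reads, a ratio of -0.85 with an interval of -1.34 to -0.39. Tnfaip2, also listed as an M cell marker, had 10 reads in WT against 0 in Spib_KO, with an upper bound of -1.10 on its log2 ratio. Tnfaip8, the founder of the TIPE family, had 35 and 20 reads, and its relative Tnfaip8l2 had 17 and 10.

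The promoters of Tnfaip3 and Tnfrsf9 are shown because both had higher values in Spib_KO and both hold NF-kB type and AP-1 type letters. The windows are the 250 bases before a RefSeq start (GRCm38.p6), at chr10:19015411-19015660 on the minus strand for Tnfaip3 and chr4:150927749-150927998 on the plus strand for Tnfrsf9. Each gene has 1 other window in the table, at another start, and neither of those held any of the motifs searched. Capitals mark the kappa B type motif (GGG, any 2 bases, then TTTCC), read on the reverse strand in Tnfaip3 at bases 12 to 3 before the start and on the forward strand in Tnfrsf9 at bases 43 to 34, and the AP-1 type motif TGANTCA, at bases 136 to 130 in Tnfaip3 and 15 to 9 in Tnfrsf9.
Tnfaip3: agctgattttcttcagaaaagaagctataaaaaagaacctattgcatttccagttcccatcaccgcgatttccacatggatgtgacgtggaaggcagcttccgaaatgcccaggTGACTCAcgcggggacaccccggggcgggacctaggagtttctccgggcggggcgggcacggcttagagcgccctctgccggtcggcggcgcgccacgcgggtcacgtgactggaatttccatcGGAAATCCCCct
Tnfrsf9: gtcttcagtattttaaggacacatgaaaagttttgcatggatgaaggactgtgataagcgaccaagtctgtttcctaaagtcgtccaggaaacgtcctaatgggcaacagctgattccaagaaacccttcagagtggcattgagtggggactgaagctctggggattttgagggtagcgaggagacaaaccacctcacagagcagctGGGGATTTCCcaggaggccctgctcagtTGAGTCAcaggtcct
The kappa B letters were in 1.41% of all windows and in 10 of the members' 82 windows (12.2%), namely those of Ccl20, Ccl9, Ccr3, Cxcl1, Cxcl2, Cxcl3, Tnfaip3, Tnfrsf25, Tnfrsf9 and Traf3. The AP-1 letters were in 6.75% of all windows and in 12 of the members' windows (14.6%). The genes with AP-1 letters had no common direction. Tnfaip3, Tnfrsf9 and Tnfrsf8 had higher values in Spib_KO. Ccl27a, Ccl27b, Ccl9, Cxcl10, Tnfsf13 and Tnfsf13b had lower values, and Ccr3, Ccr4 and Tnfaip6 had at most 9 reads. Both strands were searched for each motif. The genes with kappa B letters had no common direction, since Tnfaip3, Tnfrsf9, Tnfrsf25 and Ccl20 were higher in Spib_KO, Ccl9 was lower, Traf3 had a ratio of 0.08, and Ccr3, Cxcl1, Cxcl2 and Cxcl3 had at most 3 reads.

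TRAF proteins carry the signal from the receptors inward, and 8 of these 10 genes were measured, the highest share of any role. Traf7 had 2136 reads in WT against 1717 in Spib_KO, a log2 ratio of -0.25 with an interval of -0.34 to -0.15. Traf4 had 1144 and 995 reads and a ratio of -0.13, and Traf3ip2, the adaptor of the interleukin 17 receptor, had 837 and 800 reads and a ratio of 0.00 with an interval of -0.14 to 0.14. Traf2, the main adaptor at TNF receptors, had 836 and 700 reads, a ratio of -0.19 with an interval of -0.33 to -0.04. These abundant adaptors therefore differed little. Traf6, used by RANK, CD40 and Toll-like receptors, had 574 and 357 reads, a ratio of -0.62 with an interval of -0.81 to -0.42. Traf1, a TNF-inducible partner of Traf2 (chromosome 2, 34941750 to 34961812), stood at the other end with 76 and 174 reads. That was 4.22 CPM with an interval of 3.33 to 5.29 and 10.1 CPM with an interval of 8.69 to 11.8, a 2.39-fold difference with a ratio of 1.26 and an interval of 0.87 to 1.67. It was the highest ratio among the measured members, and its lower bound missed the call rule. Traf3ip1 had 78 and 134 reads, a ratio of 0.85 with an interval of 0.44 to 1.27. Traf3, a brake on non-canonical NF-kB signalling, had 362 and 366 reads and a ratio of 0.08, and Traf5 had 49 and 54 reads and a ratio of 0.21.

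Low-count members leaned toward WT. Across all 86, 25 (29.1%) had reads in WT and 0 in Spib_KO, against 9.78% of the 17134 genes in the table. Only 3 (3.49%), Ccl2, Ccr1 and Ccr3, had reads in Spib_KO alone, against 6.0% of all genes. Members are less abundant than most genes, so the comparison was repeated among genes with fewer than 30 reads in both libraries. There, 23 of 43 members (53.5%) had reads in WT alone and 3 (6.98%) in Spib_KO alone, against 32.4% and 20.3% of 4980 such genes. The summed reads of these 43 members were 261 in WT and 162 in Spib_KO. Apart from Tnf and Ccr7, the largest counts were 19 reads of Cxcr6, 17 of Tnfrsf19, 15 of Cxcl13, 12 of Cxcl10 and 10 each of Ccl22 and Tnfaip2. A count of 0 in Spib_KO allows up to 0.175 CPM at 3 reads, so these genes were not detectable at this depth rather than shown to be absent. Many of them are leukocyte genes, while Tnfaip2 is also on the M cell list. The lymphocyte, myeloid and B cell marker sums given above were lower in the same library. The part of leukocytes in the low-count members was not tested. Summed markers of group 2 innate lymphoid cells were 48.3 CPM in WT and 53.6 CPM in Spib_KO. Nearly all of this was Il9r, at 36.3 and 45.3 CPM, and Areg, at 11.7 and 7.87 CPM. Of that list, Gata3 had 4 and 0 reads, Il7r had 0 and 4, and Il1rl1 had 1 and 2. Summed markers of eosinophils were 0.22 and 0.41 CPM, and those of stromal and endothelial cells were 4.0 and 3.73 CPM.

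**Figure D4:**
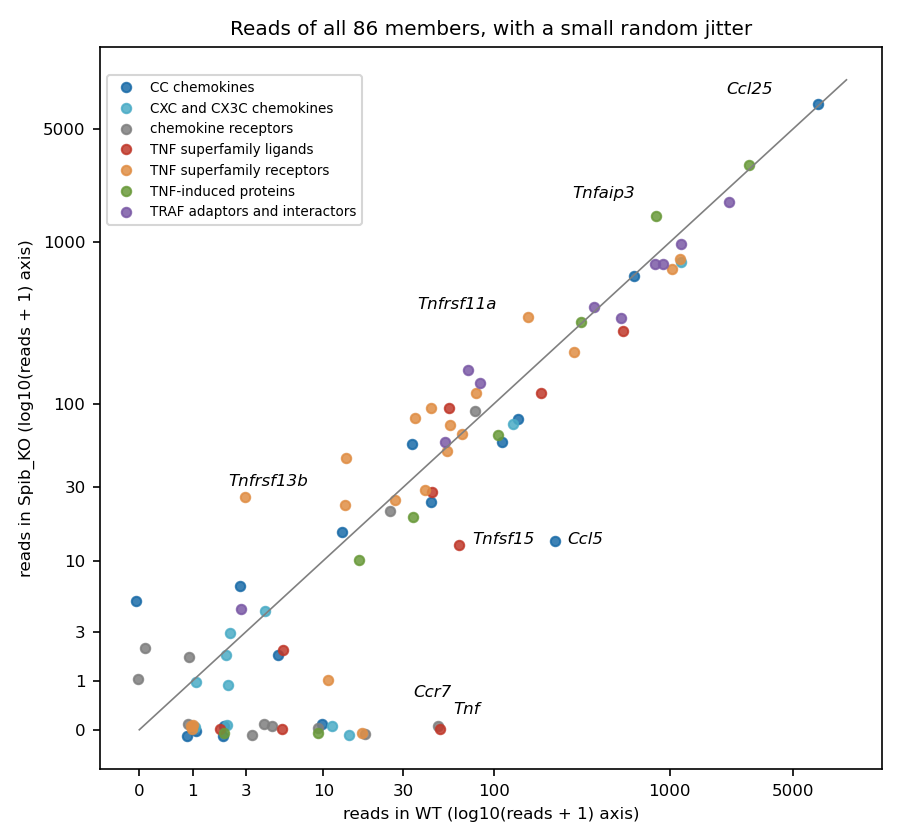
Reads of each of the 86 members in WT (horizontal axis) and Spib_KO (vertical axis), both as log10(reads + 1), with small random jitter and a line of equal reads. The 25 members with reads in WT alone lie along the bottom of the plot, with Tnf (52 reads) and Ccr7 (46 reads) furthest right, and only 3 members lie along the left edge.

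Genes that act beside the members were read from lists of pathway proteins. All 27 listed TNF receptor adaptors, kinases and cell death proteins were measured, 1 was called higher, none was called lower, and the median log2 ratio was 0.11. The called gene, Tab3, a subunit of the TAK1 kinase complex, had 32 reads in WT against 93 in Spib_KO, a ratio of 1.59 with an interval of 1.01 to 2.24. The most abundant of the list by TPM were Ripk3, the necroptosis kinase, at 180.10 and 237.43 TPM, the adaptor Tradd at 116.93 and 115.71 TPM, and Sharpin, of the linear ubiquitin ligase, at 88.1 and 74.3 TPM. All 11 NF-kB subunits and inhibitors were measured and none was called, with a median of -0.29. Nfkbia, the inhibitor that NF-kB itself induces, was at 403.83 TPM in WT and 403.35 TPM in Spib_KO. Nfkbib was at 51.8 and 39.5 TPM, and the subunit Relb was at 29.4 and 29.2 TPM with a ratio of 0.01. Rela, the main activating subunit, was at 33.3 and 22.4 TPM with a ratio of -0.58.

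Of TNF superfamily genes whose symbols fall outside the rule, 8 were in the table, 3 were measured and Ltb alone was called. The lymphotoxin beta receptor Ltbr was at 62.9 TPM in WT and 45.2 TPM in Spib_KO, a log2 ratio of -0.45. The death receptor Fas was at 9.84 and 10.7 TPM, with a ratio of 0.01. Of chemokine system genes outside the rule, 7 were in the table, 3 were measured and none was called. The scavenging receptor Ackr4, which removes Ccl25 among others, was at 24.4 and 19.8 TPM with a ratio of -0.29. The chemokine-like Cklf was at 13.5 and 7.81 TPM with a ratio of -1.05. Ccrl2, which presents chemerin, had 119 reads in WT against 42 in Spib_KO, a ratio of -1.42 with an interval of -1.98 to -0.92.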

How the data were processed

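RNA of sorted tuft cells was sequenced in 1 WT and 1 Spib_KO library. Per the file headers, the deposited table gives an expected count, an FPKM and a TPM for each gene and library, and the authors' expected counts need not be whole numbers (19.0% of the WT values and 18.6% of the Spib_KO values are not). The submitters' processing notes name HISAT, Bowtie2 2.2.3 and the build mm10, and the counting program and annotation were not given in the sources used here. TPM as deposited by the authors was used for levels between genes, and FPKM as deposited only as an alternative. Non-whole counts arise where a read is shared among similar genes, so the near-identical pair Ccl27a and Ccl27b was also summed. The pair Ccl21a and Ccl21b was summed as well, with 6 reads in WT and 2 in Spib_KO.

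Expected counts were rounded and scaled by TMM (edgeR 4.0.16 in R 4.3.3). The log2 ratio of Spib_KO over WT used a prior count of 0.5, its interval is the exact binomial (Clopper-Pearson) interval at 95% conditional on both counts, and intervals of a CPM are exact Poisson. A gene was measured if 1 library or both held at least 5 CPM and 30 reads, and called when the bound nearest 0 was a log2 ratio of 1 or beyond. No count model was fitted across genes, since each group holds 1 library. The steps were tested on simulated data with known changes set only in genes with many reads. The simulated counts held sampling error of reads alone. Recovery of changes at low counts and the error added by amplification were therefore not checked. For a gene at 0 reads in Spib_KO only the upper bound of the interval is given, and the detection limit is set at 3 reads. Positions and promoter windows come from RefSeq tables of GRCm38.p6, and exon overlaps from the GENCODE annotation in the reference files. Other steps ran in Python 3.11.15 with pandas 2.3.3, scipy 1.17.1 and numpy 2.4.6.

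The text names every called member and every member with 30 reads and a log2 ratio of 1 or beyond. It also names the 4 members of each role with the highest mean TPM. Of each pathway list it names the called genes and the 3 with the highest mean TPM. Other genes named in the text and the printed promoters were picked with their values in view. The members, gene lists and marker lists were chosen with earlier results of these data known. Values of 1 member are not reported here.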

Additional observations from a re-analysis of the deposited data

How the results depend on the processing

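Alternatives changed the scaling, the filter on low values, the size rule, the unit and the prior count. Ccl5 remained the only member called lower, and no member was called higher, with DESeq2 size factors (DESeq2 1.42.0), total counts, a filter on the mean CPM, a 4-fold bound, FPKM and a prior count of 5. The number called higher became 1 with no filter (Tnfrsf13b, against 3.48% of all genes), 3 by the point estimate (Tnfrsf11a, Tnfrsf8 and Traf1, against 3.97%), and 1 (Traf1) with TPM at a pseudocount of 1 (against 2.23%) or of 0.1 (against 2.79%). The number called lower became 10 with no filter, namely Ccl22, Ccl5, Ccr7, Cxcl10, Cxcl13, Cxcr6, Tnf, Tnfaip2, Tnfrsf19 and Tnfsf15, against 4.18% of all genes, and 0 with a minimum of 20 CPM, under which Ccl5 was no longer measured. The median log2 ratio of the members was -0.59 with no filter and -0.13 to -0.23 in the other alternatives. Members measured numbered 86 with no filter, 24 with the mean filter, 23 with TPM, 22 with FPKM, 14 with a minimum of 20 CPM and 29 otherwise. Ccl5 kept a negative ratio in each alternative that gave a value. Ratios of members at low levels were smaller with TPM at a pseudocount of 1. They were 0.75 for Tnfrsf11a, 0.68 for Tnfrsf8, 0.82 for Tnfrsf25 and 0.87 for Tnfrsf9, all under 2-fold. On the low side, they were -1.83 for Tnf, -1.51 for Ccr7 and -0.62 for Tnfsf15. No paired analysis was possible because each group holds 1 library, and for the same reason no library could be left out. Depth limits the members under 30 reads, for which a count of 0 does not show absence.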

Other observations

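Some genes near the members had differences as large as theirs. Relt, a TNF superfamily receptor outside the symbol rule, had 80 reads in WT against 0 in Spib_KO, with an upper bound of -4.34 on its log2 ratio, but stayed under 5 CPM. Fasl, the death ligand of cytotoxic lymphocytes, had 13 and 0 reads, with an upper bound of -1.54. Among NF-kB genes, Rel had 78 and 173 reads, a log2 ratio of 1.21 with an interval of 0.82 to 1.62, while the inhibitor Nfkbie had 126 and 43 reads, a ratio of -1.47 with an interval of -2.02 to -0.97, so that the subunit and the inhibitor lay on opposite sides of 0 and neither was called. Sox8, a transcription factor of M cells, was called lower with 118 reads in WT against 4 in Spib_KO. These genes were picked after their values were seen and have no replicate check.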
